A study of Mus musculus with 6 samples.

Results

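Signal peptidase, the Sec61 channel and the translocon-associated protein (TRAP) complex were followed here through 10 of their subunit genes: Sec11a, Sec11c, Spcs1, Spcs2 and Spcs3 of signal peptidase, Sec61a1 and Sec61b of the channel, and Ssr1, Ssr3 and Ssr4 of TRAP. They were taken from the count table by their Ensembl identifiers, so that 10 of the 38293 genes in the table were used, and all 10 passed the filter on low counts. The table came from bulk RNA-seq of the hearts of 3 WT and 3 Zeb2 cKO mice, all adult C57BL/6J (backcrossed) animals with a permanent occlusion of the LAD artery, 14 days after the infarct. The comparison asks what changes in the infarcted heart when cardiomyocytes lack Zeb2, a transcription factor that binds E-boxes. Zeb2 cKO mice carried floxed Zeb2 alleles and Cre under the murine Myh6 (αMHC) promoter, which is active in cardiomyocytes, and the methods describe the animals labelled WT as Zeb2 fl/fl mice without Cre. A group with Cre and no floxed allele was not analysed here. The labels place the tissue at the border of the infarct, whereas the methods place it in the remote zone. Reads came from all cells of the tissue, and in bulk samples fewer cells of a type and less RNA per cell cannot be told apart.

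Proteins that are to be secreted or built into a membrane are recognized by the signal recognition particle while they are still being made, and the ribosome is brought to the endoplasmic reticulum (ER). There the chain passes through the Sec61 channel, TRAP helps some chains to start, and signal peptidase cuts off the signal peptide. Sec11a and Sec11c encode alternative catalytic subunits of signal peptidase, and Spcs1, Spcs2 and Spcs3 encode its accessory subunits. Cells that make much matrix or many secreted proteins, such as the fibroblasts of a scar or plasma cells, are known for an extended ER.

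Depth was between 37288174 and 51136331 counts per library, of which 14301225 to 19024394 lay outside the mitochondrially encoded genes. Levels are in CPM, which are counts divided by the TMM-scaled size of the library, with factors between 0.8856 and 1.178. WT replicate 2 stood apart from the rest, with a median Spearman rho over genes of 0.9438 to the other libraries against 0.9872 to 0.9897 for each of the other 5. In this library the summed level of 8 fibroblast markers was 9621 CPM against 1680 to 2327 CPM in the other 5, and that of 8 macrophage markers was 816 CPM against 204 to 285 CPM, with all 16 of these genes highest there. The summed level of 8 cardiomyocyte markers was 31613 CPM in WT replicate 2 and 51314 to 62264 CPM in the other 5, and endothelial and mural markers also had their lowest sums there, at 430 and 683 CPM, although 2 of 8 genes of each of these lists were highest there. Summed plasma cell markers were at 60.8 CPM against 30.8 to 35.7 CPM, with 4 of 8 genes highest in WT replicate 2, but most of each sum was Xbp1, which is also in the list of the unfolded protein response below. The other 7 plasma cell markers summed to 25 CPM against 6.00 to 8.48 CPM, 5 of the 8 genes passed the filter on low counts, and Derl3 was at 0 in some libraries. No marker of these 6 lists was at 0 in every library, and cardiomyocyte markers marked all 6 as heart. Zeb2 itself was at 61.3, 116 and 71.9 CPM in WT and at 59.6, 72.6 and 66.5 CPM in Zeb2 cKO, so that the groups overlapped (log2 fold change -0.33, SE 0.25, exact permutation p = 0.5, two-sided). The counts of this tissue thus do not check the deletion, and fold changes of the members are given with and without WT replicate 2.

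None of the 10 subunits passed an adjusted p of 0.05 between Zeb2 cKO and WT in the quasi-likelihood test of edgeR, with p-values adjusted after Benjamini and Hochberg over 14746 genes, and adjusted p lay between 0.957 and 0.994. By this test 0% of all tested genes passed as well. At an unadjusted p under 0.05 the count was also 0 of 10, beside 1.9% of all genes tested. DESeq2 called 0 of 10 at an adjusted p of 0.05, beside 2 of all 14746 genes. At an unadjusted p under 0.05 it called 0 of 10, beside 361 of 14746 genes. The 2 groups of libraries overlapped in all 10 subunits, beside 6.36% of all tested genes whose groups did not overlap. The fold change was below 0 in 8 of 10 subunits, where 51.4% of all genes were below 0, with a median log2 fold change of -0.18 against -0.0069 over all genes. This direction depended on WT replicate 2, in which 10 of 10 subunits had their highest level, beside 35.2% of all genes. Without it, 3 of 10 subunits were below 0, beside 49.1% of all genes, and the median was 0.078. With 3 libraries against 3, an exact permutation test (two-sided) cannot give a p under 0.1, and no member reached that value.

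**Figure D1:**
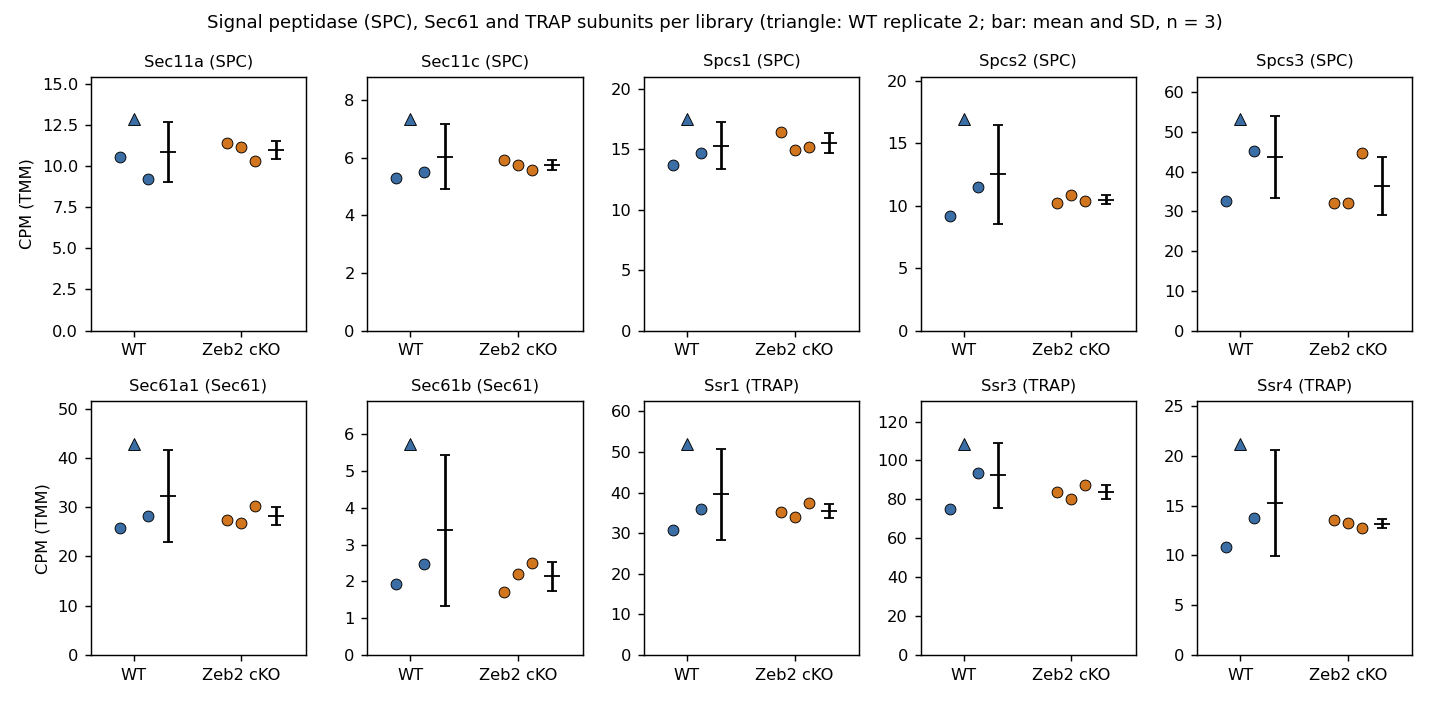
Level of each subunit in CPM after TMM scaling (vertical axis, from 0) in the 3 WT and 3 Zeb2 cKO libraries, with each library as a point, WT replicate 2 as a triangle and the mean with its SD (n = 3) beside the points. WT replicate 2 is the highest library in 10 of 10 panels, and the points of the 2 groups overlap in each.

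The genes lie on different chromosomes of GRCm38, except for Spcs2 and Sec11a, which share chromosome 7. The sequence before the start of transcription, from RefSeq (GRCm38.p6), was at hand for 7 of 10 members, without Spcs3, Sec11c and Sec61a1. Shown here are the 250 bases before the start of Sec61b and Spcs1, the subunits with the widest and the narrowest rise in WT replicate 2, and of Spcs2, which the study had picked among plasma protein genes. The window of Spcs2 lies inside the span that Gencode M21 gives the gene, which begins farther upstream. They are printed from 5′ to 3′ in the direction of the gene. Capitals mark CCACG on either strand, the end part of the ER stress response element.
Sec61b, chr4:47474411-47474660, plus strand: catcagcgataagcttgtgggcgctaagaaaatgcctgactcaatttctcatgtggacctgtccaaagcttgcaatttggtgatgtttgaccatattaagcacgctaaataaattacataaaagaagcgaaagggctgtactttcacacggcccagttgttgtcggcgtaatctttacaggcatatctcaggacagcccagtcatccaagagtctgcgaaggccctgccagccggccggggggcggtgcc
Spcs1, chr14:31001667-31001916, minus strand: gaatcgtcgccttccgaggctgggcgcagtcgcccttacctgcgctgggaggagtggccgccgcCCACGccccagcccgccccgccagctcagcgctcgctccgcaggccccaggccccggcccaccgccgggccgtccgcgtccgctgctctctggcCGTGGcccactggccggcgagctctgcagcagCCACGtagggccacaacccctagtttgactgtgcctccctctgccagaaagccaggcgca
Spcs2, chr7:99858884-99859133, minus strand: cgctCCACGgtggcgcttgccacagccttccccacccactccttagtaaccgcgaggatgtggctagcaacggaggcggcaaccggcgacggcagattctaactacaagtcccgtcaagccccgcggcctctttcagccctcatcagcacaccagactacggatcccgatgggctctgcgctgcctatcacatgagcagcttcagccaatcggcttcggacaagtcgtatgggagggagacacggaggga

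The whole ER stress response element, written as CCAAT, 9 bases and CCACG, was found on neither strand in the 7 windows from 250 bases before to 50 bases after the start, and in 0.119% of all 32851 such windows of RefSeq genes at hand. TGACGTGG, the core of the unfolded protein response element, was in 0 of 7 and in 0.676% of all windows. The E-box CACCTG, to which ZEB proteins can bind, was in 0 of 7 and in 20.2% of all windows. CCACG alone, which was looked for after the whole elements had given no match, was in the 250 bases before the start of 4 of 7 members, beside 28.3% of all windows of that length, with 3 matches for Spcs1, 2 for Ssr1 and 1 each for Spcs2 and Ssr3. It was not in the windows of Sec11a, Sec61b and Ssr4. GC content was 74% in the window of Spcs1, 63.6% for Ssr1, 63.2% for Sec11a, 61.6% for Spcs2, 59.6% for Ssr3 and 57.2% for Ssr4. It was 50% for Sec61b, and the median of all windows was 52.4%. The windows compared for CCACG were not matched for GC content. A match of letters is no evidence that a factor binds there, and the absence of one covers only these windows.

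The catalytic subunits of signal peptidase were among the steadier members. Sec11a (ENSMUSG00000025724, chr7:80904889-80947780, minus strand) was at 10.5, 12.9 and 9.22 CPM in WT replicates 1, 2 and 3 and at 11.4, 11.2 and 10.3 CPM in Zeb2 cKO replicates 1, 2 and 3. The lowest and the highest library were both WT, and the 3 Zeb2 cKO libraries lay between them. The group means of Sec11a were 10.9 ± 1.84 CPM in WT and 11 ± 0.556 CPM in Zeb2 cKO (SD, n = 3), a log2 fold change of 0.014 (SE 0.15, exact permutation p = 1). Sec11c (ENSMUSG00000024516, chr18:65800515-65817684, plus strand), its paralog, was at 5.28, 7.34 and 5.52 CPM in WT and at 5.92, 5.74 and 5.58 CPM in Zeb2 cKO. Apart from WT replicate 2, its libraries differed by at most 1.12-fold, the narrowest range of the 10 members. The means of Sec11c were 6.05 ± 1.12 and 5.75 ± 0.166 CPM (log2 fold change -0.075, SE 0.16, exact permutation p = 1). Leaving out WT replicate 2 gave 0.15 (SE 0.11) for Sec11a and 0.092 (SE 0.11) for Sec11c, so that the sign of Sec11c turned.

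Of the accessory subunits, Spcs1 moved least with WT replicate 2. Spcs1 (ENSMUSG00000021917, chr14:30999826-31001672, minus strand) was at 13.7, 17.5 and 14.7 CPM in WT and at 16.5, 14.9 and 15.2 CPM in Zeb2 cKO. Its means were 15.3 ± 1.96 and 15.5 ± 0.818 CPM (log2 fold change 0.023, SE 0.13, exact permutation p = 0.8), and without WT replicate 2 the log2 fold change was 0.13 (SE 0.10). For this gene Zeb2 cKO replicate 1 came next after WT replicate 2, and WT replicate 1 was lowest.

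Spcs2 (ENSMUSG00000035227, chr7:99837569-99863462, minus strand) was at 9.19, 16.9 and 11.5 CPM in WT and at 10.2, 10.9 and 10.4 CPM in Zeb2 cKO. The Zeb2 cKO libraries lay close together, between WT replicates 1 and 3, and WT replicate 2 lay far above them all. The means of Spcs2 were 12.5 ± 3.98 and 10.5 ± 0.366 CPM, a log2 fold change of -0.26 (SE 0.22, exact permutation p = 0.7), and without WT replicate 2 the log2 fold change was 0.025 (SE 0.12). The study drew Spcs2 from plasma proteins that mass spectrometry found enriched in the medium of ZEB2-overexpressing cells. The paper reports that the picked genes rose with overexpression and fell with knockdown of Zeb2 in cultured cells. In Zeb2 cKO hearts after infarction it names Tmsb4, Ptma, Rack1 and Dynll1 as significantly lower, and not Spcs2. The picks were also chosen for a lower level in these same samples, so the direction of Spcs2 here is not independent evidence. In addition, 23.4% of the longest transcript of Spcs2 is near-identical to the pseudogene Spcs2-ps, which had 23 to 35 counts per library where Spcs2 had 346 to 743.

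Spcs3 (ENSMUSG00000054408, chr8:54520433-54529998, minus strand) was the member in which replicate 3 of each group stood out most. It was at 32.6, 53.2 and 45.1 CPM in WT and at 32.2, 32.1 and 44.7 CPM in Zeb2 cKO. Besides WT replicate 2, replicate 3 of each group was high, and the other 3 libraries lay within 1 CPM of each other. Replicate 3 of each group also came next after WT replicate 2 for Sec61a1, Sec61b, Ssr1 and Ssr3. Only for Spcs3 were both above the gene's own mean over all libraries, by 0.20 in WT and 0.19 in Zeb2 cKO (log2 CPM). The means of Spcs3 were 43.6 ± 10.4 and 36.3 ± 7.29 CPM (log2 fold change -0.26, SE 0.22, exact permutation p = 0.2), and without WT replicate 2 the log2 fold change was -0.093 (SE 0.19).

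In the Sec61 channel, Sec61a1 encodes the pore-forming α subunit and Sec61b the small β subunit. Sec61a1 (ENSMUSG00000030082, chr6:88503579-88518905, minus strand) was at 25.8, 42.9 and 28.2 CPM in WT and at 27.3, 26.8 and 30.2 CPM in Zeb2 cKO. Its means were 32.3 ± 9.27 and 28.1 ± 1.83 CPM (log2 fold change -0.20, SE 0.20, exact permutation p = 0.8). Without WT replicate 2, the log2 fold change of Sec61a1 was 0.064 (SE 0.10), so that the sign turned.

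Sec61b (ENSMUSG00000053317, chr4:47474658-47483242, plus strand) had the lowest counts of the members and moved most. It was at 1.94, 5.74 and 2.47 CPM in WT and at 1.72, 2.21 and 2.49 CPM in Zeb2 cKO, from 73, 252 and 95 counts and 86, 96 and 134 counts. WT replicate 2 was 2.65 times the mean of the other 5 libraries, among which Sec61b varied 1.45-fold. The means of Sec61b were 3.38 ± 2.06 and 2.14 ± 0.392 CPM, with a log2 fold change of -0.66 (SE 0.42, exact permutation p = 0.5). Without WT replicate 2 the log2 fold change was -0.039 (SE 0.23). Without WT replicate 1, Sec61b was the only member with an unadjusted p under 0.05, at a log2 fold change of -0.94 (unadjusted p = 0.045, adjusted p = 0.596 by edgeR with Benjamini-Hochberg), and in that fit 7.52% of all genes had an unadjusted p under 0.05. Near-identical stretches cover 22.8% of its longest transcript and lie in 3 other genes.

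The γ subunit of the channel, Sec61g, was not a member but was in the list of other translocon genes. It was at 0.478, 0.706 and 0.391 CPM in WT and at 0.699, 0.576 and 0.465 CPM in Zeb2 cKO, a log2 fold change of 0.14 (SE 0.32). Sec61g and Ssr2, given below, are named because they complete the complexes, and they were chosen after their values were seen.

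TRAP subunits had the same order of libraries at both ends. Ssr1 (ENSMUSG00000021427, chr13:37966605-37994217, minus strand), the α subunit, was at 30.7, 52.0 and 35.9 CPM in WT and at 35.2, 34.1 and 37.5 CPM in Zeb2 cKO. Ssr3 (ENSMUSG00000027828, chr3:65379655-65392623, minus strand), the γ subunit, was at 75.2, 108.6 and 93.4 CPM in WT and at 84.0, 80.0 and 87.1 CPM in Zeb2 cKO. Ssr4 (ENSMUSG00000002014, chrX:73787028-73790830, plus strand), the δ subunit, was at 10.9, 21.2 and 13.7 CPM in WT and at 13.6, 13.2 and 12.7 CPM in Zeb2 cKO. In each of the 3 genes WT replicate 1 was the lowest library and WT replicate 2 the highest, so that the 3 Zeb2 cKO libraries lay inside the range of WT.

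The means of Ssr1 were 39.5 ± 11.1 and 35.6 ± 1.73 CPM (log2 fold change -0.15, SE 0.20, exact permutation p = 0.8). Those of Ssr3 were 92.4 ± 16.7 and 83.7 ± 3.58 CPM (log2 fold change -0.14, SE 0.16, exact permutation p = 0.5). Those of Ssr4 were 15.3 ± 5.34 and 13.2 ± 0.431 CPM (log2 fold change -0.21, SE 0.24, exact permutation p = 0.7). In all 3 the difference between the groups was smaller than the SD of WT. Without WT replicate 2 the log2 fold changes were 0.099, -0.0067 and 0.10. The β subunit, Ssr2, was at 15.0, 26.5 and 17.0 CPM in WT and at 18.7, 16.8 and 17.6 CPM in Zeb2 cKO, again with WT replicate 1 lowest and WT replicate 2 highest.

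**Figure D2:**
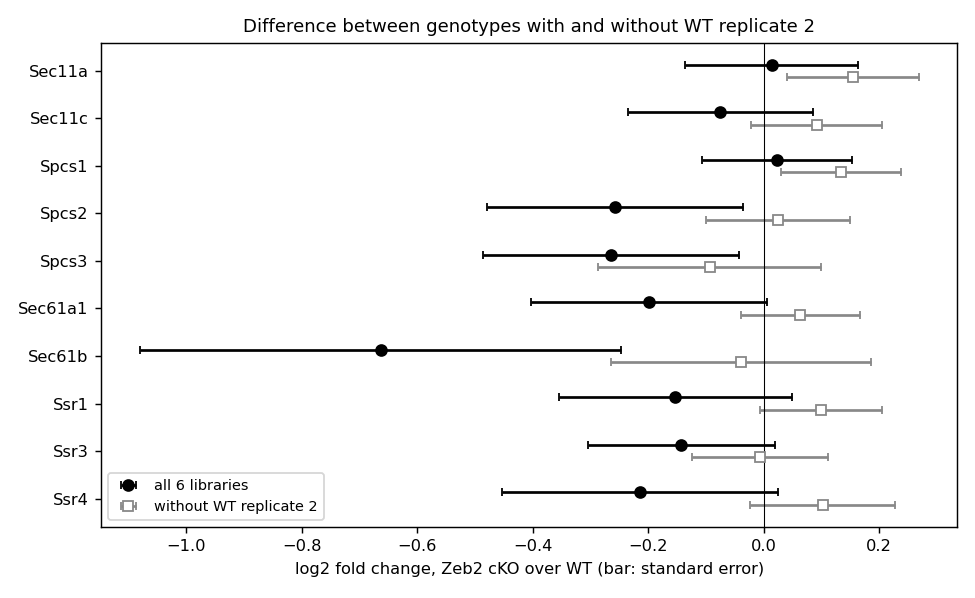
Log2 fold change of Zeb2 cKO over WT (horizontal axis) with its standard error from edgeR for each subunit, with all 6 libraries (filled circles) and without WT replicate 2 (open squares). The median of the 10 subunits was -0.18 with all libraries and 0.078 without WT replicate 2, and the widest shift is that of Sec61b, from -0.66 to -0.039.

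WT replicate 2 held the members above the other 5 libraries by unequal amounts. The level there was 1.17 times the mean of the other 5 for Spcs1, 1.22 for Sec11a, 1.29 for Ssr3, 1.31 for Sec11c and 1.42 for Spcs3. It was 1.5 times for Ssr1, 1.55 for Sec61a1, 1.62 for Spcs2, 1.65 for Ssr4 and 2.65 for Sec61b. The median of the members was 1.46, against 0.988 for all tested genes, whose lower and upper quartiles were 0.764 and 1.31, and 6 of 10 members lay above this upper quartile. Fibroblast markers summed to 5.0 times and macrophage markers to 3.22 times the mean of the other 5 libraries, with 8 of 8 genes of each list highest in WT replicate 2. The 7 plasma cell markers other than Xbp1 summed to 3.57 times, but only 3 of these 7 were highest there. Cardiomyocyte markers summed to 0.550 times. The part of these cell types in the level of the subunits was not tested.

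**Figure D3:**
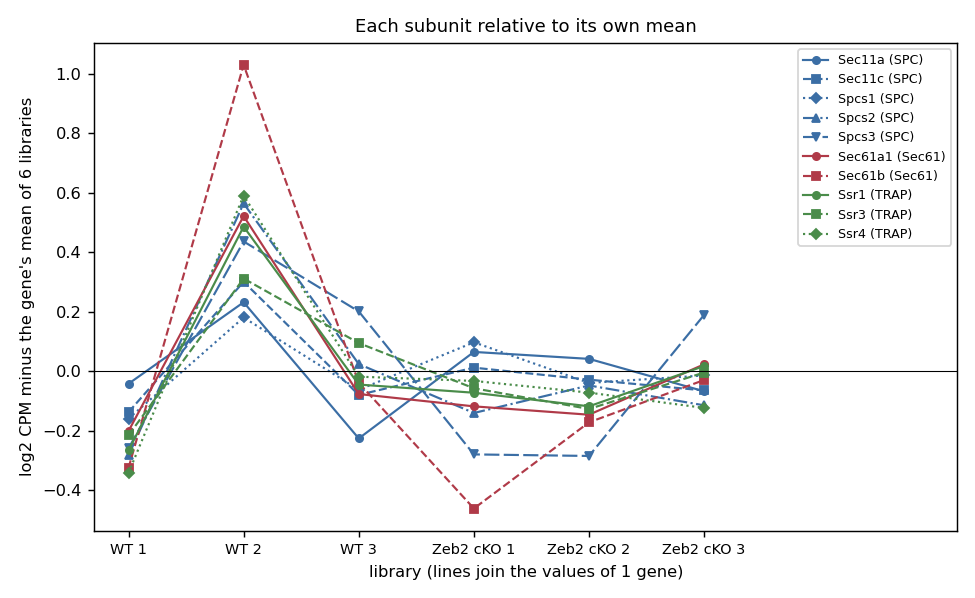
Log2 CPM of each subunit minus its own mean over the 6 libraries (vertical axis) by library, with signal peptidase in blue, Sec61 in red and TRAP in green, and lines that join the values of 1 gene. All 10 lines peak at WT replicate 2, from 0.18 for Spcs1 to 1.03 for Sec61b, and the line of Spcs3 is also above 0 at replicate 3 of each group.

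The range of the 10 subunits around their own means showed how far they went together in each library. In WT replicate 1, deviations in log2 CPM lay between -0.34 for Ssr4 and -0.043 for Sec11a, so that all 10 were below their mean, and 7 of 10 had their lowest value there. In WT replicate 2 all 10 were above it, with a median deviation of 0.46. In WT replicate 3 and in Zeb2 cKO replicates 1, 2 and 3, the medians were -0.042, -0.065, -0.095 and -0.022, and members lay on both sides of 0. Over all tested genes the median deviation was between -0.0080 and 0.0011 in each library.

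Over the 6 libraries all 45 pairs of subunits had a Pearson r above 0 in log2 CPM, and no pair passed the adjusted test. The median r was 0.867, with a range from 0.099 for Spcs3 and Sec11a to 0.987 for Sec61a1 and Ssr1. The median Spearman rho was 0.657, with a range from -0.086 to 1. For Sec61a1 and Ssr1 rho was 1, and r was 0.96 after the 2 libraries farthest from the median were left out. In exact permutation tests 25 of 45 pairs had a raw p under 0.05 for r, and 0 of 45 passed after Benjamini-Hochberg adjustment, with adjusted p from 0.0573 to 0.922 for r and from 0.125 to 1 for rho. The smallest p that pairings of 6 libraries can give is 0.00139 for r. For rho, the pair with a rho of 1 had an exact permutation p of 0.00278. When the 2 libraries farthest from the median of the first gene were left out, which took out WT replicate 2 in 45 of 45 pairs, the median r was 0.208 and 19 of 45 pairs were below 0. The other library left out differed between pairs, and r over the 4 libraries that remained covers a narrower range of levels, which itself lowers r. With WT replicate 2 alone left out, an alternative chosen after seeing the data, the median r was 0.514 (range -0.82 to 0.94) and 11 of 45 pairs were below 0. With any other library alone left out, the median r lay between 0.860 and 0.938 and 0 of 45 pairs were below 0.

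Pairs within a complex differed from each other. The 10 pairs of signal peptidase subunits had an r between 0.099 and 0.933, whereas r was 0.968 for Sec61a1 and Sec61b and 0.968, 0.941 and 0.924 for Ssr1 with Ssr4, Ssr1 with Ssr3 and Ssr3 with Ssr4. The median was 0.794 over the 14 pairs within a complex and 0.869 over the 31 pairs between complexes. These values are given as a description without a test. Sec11a and Sec11c, the alternative catalytic subunits, had an r of 0.819 and a rho of 0.829 (exact permutation adjusted p = 0.0903 and 0.239), and r was 0.787 after 2 libraries were left out. Over all 108714885 pairs of tested genes the median r was -0.0005, and 5.41% of pairs were at or above the median of the members. All such pairs share the same 6 libraries and their scaling.

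Levels per kb of exon placed TRAP's γ subunit at the top and the catalytic subunit Sec11c at the bottom. In mean CPM per kb over the 6 libraries, Ssr3 was at 21.1, followed by Spcs3 at 11.5 and Spcs1 at 9.97. Ssr4 at 4.6, Sec61a1 at 4.49, Ssr1 at 3.60 and Spcs2 at 2.73 came next. The lowest levels were those of Sec11a at 2.37, Sec61b at 2.17 and Sec11c at 0.866 CPM per kb. The ranges over libraries of neighbours in this order did not overlap between Ssr3 and Spcs3, between Spcs1 and Ssr4 and between Sec61b and Sec11c, and they overlapped for the other 6 pairs of neighbours. With the length of the longest transcript in place of all exons, Spcs1 stood above Spcs3, Sec61a1 above Ssr4 and Sec61b above Sec11a.

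No difference between the genotypes was found in the make-up of signal peptidase transcripts. Of the summed level per kb of its 5 subunits, Spcs3 took 43.6 ± 3.26% in WT and 39.7 ± 5.19% in Zeb2 cKO, and Spcs1 took 34.8 ± 2.59% and 38.4 ± 3.37% (SD, n = 3). The exact permutation p of the difference was 0.3 for Spcs3 and 0.2 for Spcs1, in a test that cannot give a p under 0.1 here. Spcs2 took 10.2 ± 1.26% and 9.51 ± 0.868%, Sec11a 8.30 ± 1.31% and 9.12 ± 1.03%, and Sec11c 3.10 ± 0.205% and 3.23 ± 0.284%. The share of Sec11c in the sum of both catalytic paralogs was 25.4%, 27.9% and 28.9% in WT and 26.0%, 25.8% and 26.8% in Zeb2 cKO. Its means were 27.4 ± 1.81% and 26.2 ± 0.521%, a difference of -1.18 percentage points (exact permutation p = 0.4). The groups overlapped for all 10 shares computed, and the permutation p adjusted over them by Benjamini-Hochberg was between 0.857 and 1.

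**Figure D4:**
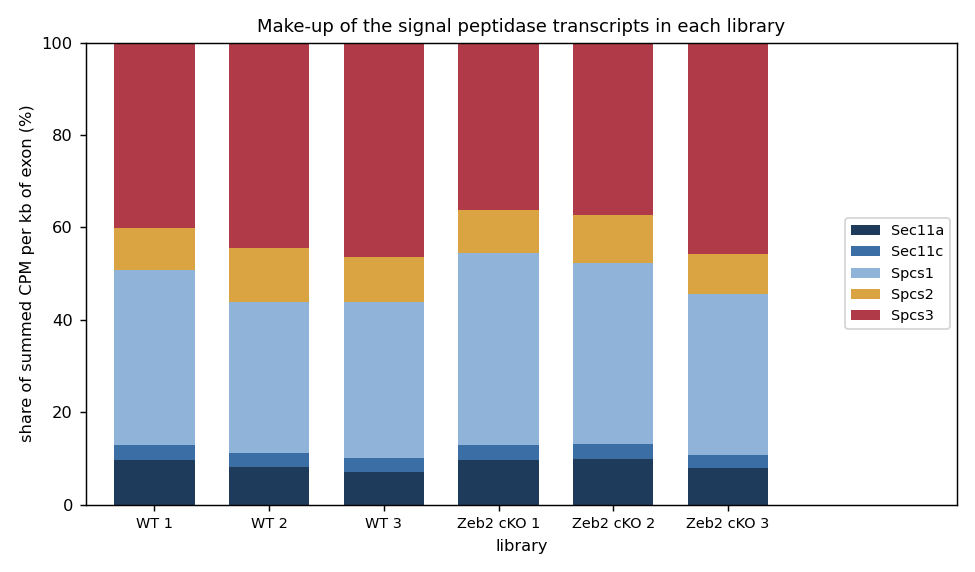
Share of each of the 5 subunits in the summed CPM per kb of exon of signal peptidase (vertical axis, percent) in each library, as stacked bars that add up to the whole. Spcs3 and Spcs1 take most of every bar, Spcs3 is widest in WT replicate 3 (46.4%) and narrowest in Zeb2 cKO replicate 1 (36.1%), and Sec11c stays between 2.89% and 3.40%.

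In the channel and in TRAP, shares moved with WT replicate 2. The share of Sec61b in the sum of Sec61a1 and Sec61b was 28.5%, 41.5% and 31.8% in WT and 25%, 30.4% and 30.4% in Zeb2 cKO (exact permutation p = 0.4). In TRAP, Ssr3 took 73.6%, 68.7% and 74.0% in WT and 72.2%, 71.8% and 73.0% in Zeb2 cKO, while Ssr4 took 14.4%, 18.1% and 14.7% in WT and 15.8%, 16.0% and 14.4% in Zeb2 cKO. WT replicate 2 thus had the highest share of Sec61b and Ssr4 and the lowest share of Ssr3. For Ssr3 and Ssr4 the exact permutation p was 1 and 0.9.

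The genes most like the mean profile of the members over the 6 libraries were Sp3, a zinc finger transcription factor (r = 0.998), Lum, a proteoglycan of the matrix (r = 0.996), Nectin3, an adhesion protein (r = 0.996), Arl1, a small GTPase of the Golgi (r = 0.995), and Ecm1, a secreted matrix protein (r = 0.995). They were chosen from 5888 genes with a mean of at least 10 CPM, of which 424 (7.2%) had an r of at least 0.95. All 5 were highest in WT replicate 2, where Lum was at 362 CPM against 55.9 to 93.6 CPM in the other libraries and Sp3 at 70.1 CPM against 50.3 to 55.5 CPM. Of the members themselves, Ssr1 was closest to the mean profile (r = 0.995) and Sec11a farthest from it (r = 0.673), each of them being part of that mean.

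Upstream of the channel, the signal recognition particle and its receptor showed little movement. Of 10 genes listed, 7 were tested, of which 2 were below 0 and 5 above, with a median log2 fold change of 0.044, and 4 of 7 were highest in WT replicate 2. Srp68, a protein of the particle, was at 12.4 ± 0.767 CPM in WT and 10.5 ± 1.76 CPM in Zeb2 cKO (log2 fold change -0.23, SE 0.15), and Srp19, another, had a log2 fold change of -0.13 (SE 0.15). Srpr and Srprb, the receptor's subunits, were at 0.088 (SE 0.11) and 0.067 (SE 0.13). Near-identical copies cover 42.9% of the longest transcript of Srpr and 31.7% of that of Srprb, so their counts are uncertain.

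Among 24 other translocon, insertase and signal peptide peptidase genes, 9 were below 0 and 15 above, with a median log2 fold change of 0.078. Tram1, which helps chains into the channel, was at 36.0, 71.6 and 41.2 CPM in WT and at 38.2, 37.6 and 39.5 CPM in Zeb2 cKO, a log2 fold change of -0.37 (SE 0.26). Its paralog Tram2 had a log2 fold change of -0.49 (SE 0.34). Both were highest in WT replicate 2, as were 10 of 24 genes of the list in all. Leaving out that library gave -0.0031 (SE 0.098) for Tram1, -0.064 (SE 0.23) for Tram2 and a list median of 0.052. Tmem147, a part of the multipass translocon, was at 22.0, 19.3 and 24.8 CPM in WT and at 29.3, 26.7 and 24.2 CPM in Zeb2 cKO (log2 fold change 0.28, SE 0.14, and 0.20 without WT replicate 2), with its lowest level in WT replicate 2. Wdr83os was at 0.19 (SE 0.14), and 64.2% of its longest transcript is shared with other genes.

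The oligosaccharyltransferase, which attaches sugars to chains as they leave the channel, looked most like the members. Of its 12 genes 10 were below 0 and 2 above, with a median log2 fold change of -0.10, 9 of 12 were highest in WT replicate 2, and the median turned to 0.071 without that library. Stt3a, the catalytic subunit that works at the channel, was at 20.5, 40.4 and 24.1 CPM in WT and at 21.4, 21.2 and 24.3 CPM in Zeb2 cKO (log2 fold change -0.35, SE 0.25, and 0.0020 without WT replicate 2). Krtcap2 was at -0.18 (SE 0.18), Rpn1 at 0.014 (SE 0.14) and Magt1 at 0.14 (SE 0.14).

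Of 26 genes of ER chaperones and the unfolded protein response, 16 were below 0 and 10 above, with a median log2 fold change of -0.072. Leaving out WT replicate 2, 13 were below 0 and 13 above, and the median turned to 0.016. With all libraries, the groups did not overlap in 3 of 26, all lower in Zeb2 cKO, beside 6.36% of all tested genes in either direction. Pdia6, a disulfide isomerase, was at 31.9, 43.7 and 32.4 CPM in WT and at 28.2, 31.6 and 27.7 CPM in Zeb2 cKO (log2 fold change -0.30, SE 0.16), and Eif2ak3, the stress sensor PERK, was at 9.82, 11.7 and 9.61 CPM and at 8.57, 8.83 and 9.14 CPM (log2 fold change -0.23, SE 0.12). The other was Syvn1, a ubiquitin ligase of the ER, which is named after its values were seen (log2 fold change -0.22, SE 0.14). Herpud1 was at 0.25 (SE 0.19) and Hyou1 at 0.13 (SE 0.13). Of 15 genes of COPII export, 8 were below 0 and 7 above (median -0.024), with Sec24d at -0.27 (SE 0.19), Sec24b at -0.22 (SE 0.14), Mia2 at 0.18 (SE 0.17) and Sec24c at 0.16 (SE 0.14). Leaving out WT replicate 2 gave a COPII median of 0.0091, with Sec24d at -0.032, Sec24b at -0.18, Mia2 at 0.089 and Sec24c at 0.042. With all libraries, the groups did not overlap in 2 of 15, Sec31a at -0.075 (SE 0.11) and Mia3 at -0.039 (SE 0.10), both lower in Zeb2 cKO and named after their values were seen. Not 1 tested gene of these 5 lists had an unadjusted p under 0.05 by edgeR, beside 1.9% of all genes tested. DESeq2 gave the same count of 0, beside 361 of all 14746 genes.

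**Figure D5:**
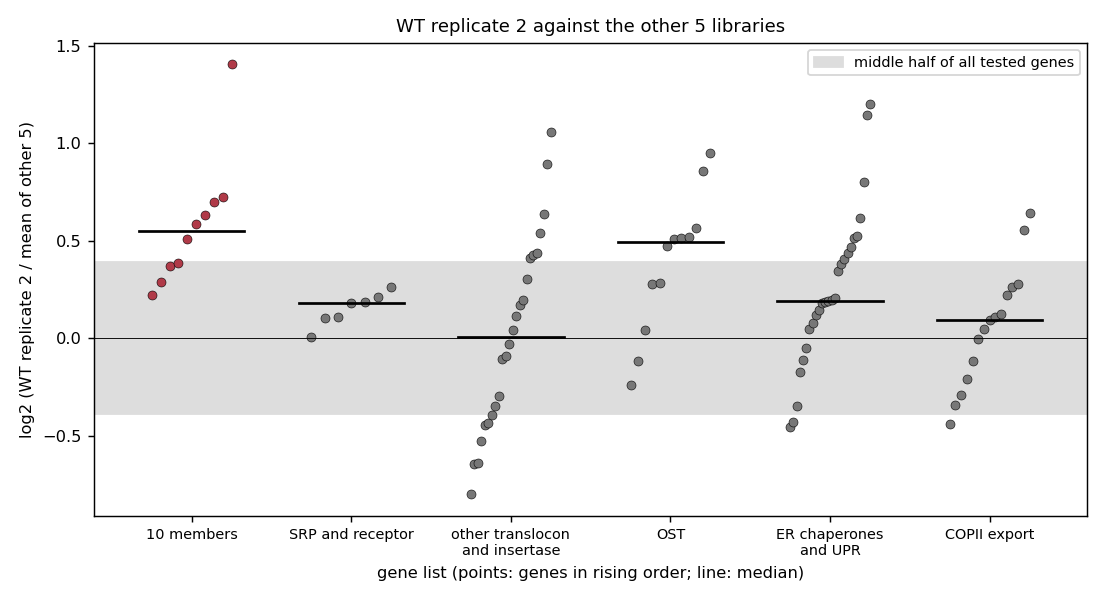
Log2 of the level in WT replicate 2 over the mean of the other 5 libraries (vertical axis) for the 10 subunits (red) and the tested genes of 5 lists of the secretory pathway (grey), each point a gene, with the median as a line and the middle 50% of all tested genes shaded. All 10 subunits lie above 0, and the medians as folds are 1.46 for the subunits, 1.41 for oligosaccharyltransferase (OST), 1.14 for ER chaperones, 1.13 for the signal recognition particle (SRP), 1.07 for COPII export and 1.00 for other translocon genes.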

How the data were processed

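RNA-seq of heart tissue of 3 WT and 3 Zeb2 cKO mice was used. Total RNA was isolated with TRIzol, and libraries were made with a stranded kit after removal of ribosomal RNA. The authors aligned single-end reads and counted them with the STAR workflow on Gencode M4 (GRCm38/mm10), and the authors deposited raw counts per gene. The STAR version, the strand option and the handling of reads with several places are not given in the sources used here. The submitters' processing notes name DESeq 1.2.

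Each of the 6 count columns was matched to 1 sample by its label, and 0 columns of other samples were present. Groups and replicate numbers came from the labels, and the series' design names separate mice. Symbols, coordinates, exon lengths and transcripts came from Gencode M21 of the same build, by gene identifier. Counts were scaled with TMM, filtered with filterByExpr (14746 genes kept) and tested with glmQLFit and glmQLFTest of edgeR 4.0.16 in R 4.3.3 with genotype as the only factor, a prior count of 0.125 and Benjamini-Hochberg adjustment over all genes kept. Log2 CPM for correlations and permutation tests used a pseudocount of 0.5. Permutation tests were exact and two-sided, with SciPy 1.17.1 in Python 3.11.15. Errors are SDs between mice. Counting error weighs most on Sec61b (73 to 252 counts) and Sec11c (199 to 322 counts). The common biological coefficient of variation was 0.243. The fit was tested on simulated data before use.

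Same-numbered libraries deviated from their group means with correlations of 0.103, -0.16 and -0.14, and the labels name no shared litter or day, so libraries were not paired by number. The longest transcript of each named gene was aligned to the transcripts of other genes with BLAST 2.17.0, and matches of at least 75 bases and 95% identity were taken as near-identical copies. Spcs1 shares 252 bases of exon with Glt8d1, Spcs3 75 with Asb5 and Sec61a1 549 with Gm44170 on the opposite strand, so counts there depend on the strand option, as they do for 216 bases of Sec11a and Gm16171, which had 0 counts. Sec11a also shares 163 bases with Nmb on the same strand, where reads cannot be assigned by strand. Copies cover 17.4% of the longest transcript of Sec61a1 (the same antisense gene), at most 4.37% of Sec11a, Sec11c, Spcs3 and Ssr1, and none of Spcs1, Ssr3 and Ssr4.

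The members, gene lists and tests were chosen with earlier results of these data known. Named were all members, Zeb2, of each list the 2 tested genes with the smallest unadjusted p in each direction, and the 5 genes most like the mean of the members. Alternatives covered the scaling, mitochondrially encoded genes, the low-count filter, DESeq2 1.42.0, robust dispersions, a replicate block, the gene length, and leaving out each library. Protein sequences were not used here.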

Additional observations from a re-analysis of the deposited data

How the results depend on the processing

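The count of 0 members past an adjusted p of 0.05 was the same under every alternative run, and DESeq2 called 2 of all tested genes, none of them a member. The median log2 fold change of the members lay between -0.19 and -0.16 under other scalings, filters and tools, and was -0.14 under the replicate block, which changed no call. It lay between -0.32 and 0.078 with 1 library left out at a time, and was above 0 only without WT replicate 2. Leaving out 1 library turned the sign of the log2 fold change of Spcs1 (-0.049 to 0.13), Spcs2 (-0.44 to 0.025), Sec11a (-0.091 to 0.15), Sec11c (-0.16 to 0.092), Sec61a1 (-0.34 to 0.064), Ssr1 (-0.30 to 0.099) and Ssr4 (-0.41 to 0.10). It did not for Spcs3 (-0.44 to -0.093), Sec61b (-0.94 to -0.039) and Ssr3 (-0.27 to -0.0067). The difference in share within a complex, in percentage points, turned for Spcs2 (-1.15 to 0.032), Ssr1 (-0.30 to 0.60), Ssr3 (-1.47 to 1.15) and Ssr4 (-1.01 to 0.87). The median pairwise r of 0.867 moved to 0.208 without the 2 libraries farthest from the median, and lay between 0.514 (without WT replicate 2) and 0.938 with 1 library left out at a time, which was added after seeing the data. The count of genes of a list with an unadjusted p under 0.05 was between 0 and 2 in the alternatives, and the 2 of 26 came from the fit without WT replicate 1, in which 7.52% of all genes passed. Levels below about 3 CPM, those of Sec61b and Sec61g, rest on few counts. The cause of these shifts was not tested.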
